A study of Mus musculus with 4 samples.

Results

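Pigr, Ccl28, Jchain and Mzb1 are 4 genes of the route by which IgA reaches the gut lumen. They were taken by symbol from a table of 14979 genes, in which each symbol had 1 row, and all 4 had enough tags to be tested. Their levels in the same 4 libraries were known when they were chosen, so their values are given here as a description, with no test. The tissue was tumour of the colon, induced in mice with AOM/DSS: azoxymethane, a carcinogen, and then dextran sulfate sodium, which inflames the gut. The MAdCAM1 group, tumours of 2 mice, had received an antibody to MAdCAM-1, through which venules of the gut hold lymphocytes that bear α4β7 integrin. The IgG group, tumours of 2 other mice, had received control IgG. Both groups carried AOM/DSS tumours, so no untreated colon enters any comparison. Each mouse gave 1 library, named MAdCAM1 1, MAdCAM1 2, IgG 1 and IgG 2, and strain, age, sex and antibody dose were not given in the sources used here.

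IgA leaves the plasma cells of the gut wall as dimers held together by the J chain, which Jchain encodes. The polymeric immunoglobulin receptor, the product of Pigr, binds the J chain at the basal face of the epithelial cell, carries the dimer through the cell and is cleaved at the lumen, where its outer part stays on the antibody as secretory component. Ccl28 is a chemokine of mucosal epithelium that attracts IgA plasma cells through the receptor Ccr10, and Mzb1 is a chaperone of the endoplasmic reticulum that helps B and plasma cells assemble and secrete antibody. Pigr and Ccl28 therefore report on the epithelial side of the route, and Jchain and Mzb1 on the plasma cell side.

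Levels came from cap analysis of gene expression (CAGE). It counts tags at capped 5′ ends of RNA, so that a gene's tags do not scale with its length. The libraries held 14850923 and 15895228 tags in the MAdCAM1 group and 16891234 and 15727936 tags in the IgG group. A level is stated in CPM, a count relative to the library total corrected by TMM for unequal composition; 1 tag equals 0.0569 to 0.0700 CPM. Log2 fold changes are MAdCAM1 over IgG. Of 14331 genes tested with edgeR's quasi-likelihood test, 0 (0%) were called in either direction at an adjusted p under 0.05, with 730 higher and 261 lower at an unadjusted p under 0.05. DESeq2 called 219 higher (1.53%) and 20 lower (0.14%), edgeR's exact test 152 higher (1.06%) and 9 lower (0.0628%), and limma-voom 0. For 19.7% of the tested genes both MAdCAM1 values lay above both IgG values, and for 18.7% both lay below. MAdCAM1 2 stood apart in lymphoid genes, and 91 tested genes (0.635%) were over 4-fold higher in it than in every other library.

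The 250 bases before the annotated start of Pigr, Ccl28 and Jchain are shown because CAGE counts tags at the starts of RNA. Whether the counted tags came from these annotated starts was not checked. The sequences were read from the GRCm39 genome at GENCODE M39 canonical starts, 5′ to 3′ on the strand of the gene, and capitals mark matches to the motifs named after them, none of which overlap. Pigr lies on the plus strand of chromosome 1 (130754397 to 130779986), Ccl28 on the plus strand of chromosome 13 (120085355 to 120115895) and Jchain on the minus strand of chromosome 5 (88667668 to 88675750).
Pigr, chr1:130754147-130754396: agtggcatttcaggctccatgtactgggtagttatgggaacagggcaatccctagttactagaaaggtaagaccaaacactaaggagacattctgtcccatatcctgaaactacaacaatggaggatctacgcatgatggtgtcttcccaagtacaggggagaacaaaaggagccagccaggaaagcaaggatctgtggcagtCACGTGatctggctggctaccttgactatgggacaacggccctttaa
Ccl28, chr13:120085105-120085354: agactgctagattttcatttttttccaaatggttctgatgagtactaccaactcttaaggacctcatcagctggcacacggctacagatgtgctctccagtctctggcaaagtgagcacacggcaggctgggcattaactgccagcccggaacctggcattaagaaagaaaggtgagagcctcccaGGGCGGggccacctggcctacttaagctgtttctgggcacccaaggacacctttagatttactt
Jchain, chr5:88675751-88676000: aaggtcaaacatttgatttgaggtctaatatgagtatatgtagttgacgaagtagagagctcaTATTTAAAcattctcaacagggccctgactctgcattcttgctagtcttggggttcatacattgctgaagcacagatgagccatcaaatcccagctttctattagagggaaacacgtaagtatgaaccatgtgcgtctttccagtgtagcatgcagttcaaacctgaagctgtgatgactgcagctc
In Pigr the capitals mark CACGTG, the palindromic E-box bound by factors of the USF and MYC families, which begins 47 bases before the start. The same 6 letters occur in 6.26% of the 21770 promoters of this length. In Ccl28 they mark GGGCGG, a GC box bound by SP factors, 64 bases before the start, and 36.3% of all promoters hold it on either strand. In Jchain they mark TATTTNNA, an AT-rich element of the kind bound by MEF2 factors, 187 bases before the start, a match found in 14.4% of all promoters. Searched on both strands and not found in the 3 windows were TATAAA, ATTTGCAT (the octamer of B cell promoters), GAAANNGAA (interferon regulatory factors), GGGANTTTC (NF-kB), TGANTCA (AP-1), TGACGTGG (the unfolded protein response) and TTTATNG (CDX factors). These occur in 11.9%, 1.49%, 7.55%, 1.08%, 6.17%, 0.56% and 9.57% of all promoters in that order. No searched motif was shared between the 3 windows. The windows of Pigr, Ccl28 and Jchain held 3, 4 and 3 CG dinucleotides, against a median of 8 over all promoters, and 48.4%, 50.8% and 42.4% G and C, against a median of 53.2%.

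Pigr was higher in both MAdCAM1 tumours than in both IgG tumours. It had 9379 and 9077 tags in MAdCAM1 1 and MAdCAM1 2, or 657 and 588 CPM, against 5331 and 3182 tags in IgG 1 and IgG 2, or 303 and 197 CPM. The MAdCAM1 libraries lay close together and the groups did not overlap, the lower MAdCAM1 value being 1.94 times the higher IgG value. The means were 622 ± 48.8 CPM in MAdCAM1 and 250.1 ± 75.4 CPM in IgG (SD, n = 2 each). The fitted log2 fold change was 1.32, or 2.49-fold. The difference of mean log2 CPM was 1.35, with a standard error of 0.32 from the spread of log2 CPM within the groups. By fold change Pigr ranked 435 among the 14331 genes tested. Within the tumours of 1 treatment, MAdCAM1 2 had 0.895 times the level of MAdCAM1 1, and IgG 2 had 0.649 times that of IgG 1. In GENCODE the opposite-strand noncoding gene Gm15848 overlaps Pigr, and whether the authors counted by strand is not given in the sources used here.

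Ccl28 had the same order of libraries as Pigr and a wider gap. Its tags numbered 617 and 631 in MAdCAM1 1 and MAdCAM1 2 and 153 and 41 in IgG 1 and IgG 2, or 43.2 and 40.9 CPM in MAdCAM1 and 8.71 and 2.54 CPM in IgG. The MAdCAM1 libraries were nearly equal, whereas IgG 2 had 0.291 times the level of IgG 1, so the spread of this gene lay within the control group. The lower MAdCAM1 value was 4.69 times the higher IgG value. The means were 42.0 ± 1.66 CPM in MAdCAM1 and 5.62 ± 4.36 CPM in IgG (SD, n = 2 each). The fitted log2 fold change was 2.90 (7.45-fold), and the difference of mean log2 CPM was 3.16 (standard error 0.89). The size of the difference rested on which IgG tumour it was set against, at a log2 fold change of 4.03 without IgG 1 and 2.27 without IgG 2. By fold change Ccl28 ranked 126 of 14331. The opposite-strand noncoding gene Gm60502 overlaps Ccl28 in GENCODE.

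Jchain did not follow the epithelial pair. It had 610 and 6944 tags in MAdCAM1 1 and MAdCAM1 2, or 42.7 and 449.6 CPM, against 143 and 573 tags in IgG 1 and IgG 2, or 8.14 and 35.4 CPM. MAdCAM1 2 was far above the rest, IgG 1 was far below it, and MAdCAM1 1 and IgG 2 were near each other, at a ratio of 1.21. The exact 95% Poisson interval was 39.4 to 46.2 CPM in MAdCAM1 1 and 32.6 to 38.5 CPM in IgG 2, an interval that covers counting error only. The 2 tumours of a group differed by more than the groups did at their nearest values, since MAdCAM1 2 had 10.5 times the level of MAdCAM1 1 and IgG 2 had 4.35 times that of IgG 1. The means were 246 ± 288 CPM in MAdCAM1 and 21.8 ± 19.3 CPM in IgG (SD, n = 2 each). The fitted log2 fold change was 3.50, and 0.97 without MAdCAM1 2. The difference of mean log2 CPM was 3.03 (standard error 2.00).

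Mzb1 was low in every library and had the same highest library as Jchain. It had 19 and 135 tags in MAdCAM1 1 and MAdCAM1 2, or 1.33 and 8.74 CPM, against 5 and 7 tags in IgG 1 and IgG 2, or 0.285 and 0.433 CPM. The exact 95% Poisson intervals were 0.801 to 2.08 CPM in MAdCAM1 1, 0.0924 to 0.664 CPM in IgG 1 and 0.174 to 0.892 CPM in IgG 2. The interval of MAdCAM1 1 overlapped that of IgG 2, and MAdCAM1 2 alone was clear of the other 3 libraries. Overlap of intervals is not a test of a difference, and these intervals cover counting error only, not the spread between mice. The means were 5.04 ± 5.24 CPM in MAdCAM1 and 0.359 ± 0.105 CPM in IgG (SD, n = 2 each). The fitted log2 fold change was 3.79, and 1.87 without MAdCAM1 2. The difference of mean log2 CPM was 3.28 (standard error 1.39). Mzb1 lies on the minus strand of chromosome 18 (35780319 to 35782642), where it overlaps the annotated same-strand gene Gm50318. Gm50318 had 192 and 108 tags in the MAdCAM1 libraries and 150 and 148 tags in the IgG libraries, an order unlike that of Mzb1, and how tags of the shared stretch were assigned is not given in the sources used here. In fold change Jchain and Mzb1 ranked 81 and 63 of 14331. For 4 of the 4 genes both MAdCAM1 values were above both IgG values, where this held for 19.7% of all tested genes; the genes were chosen from this comparison, so the count carries no weight.

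**Figure D1:**
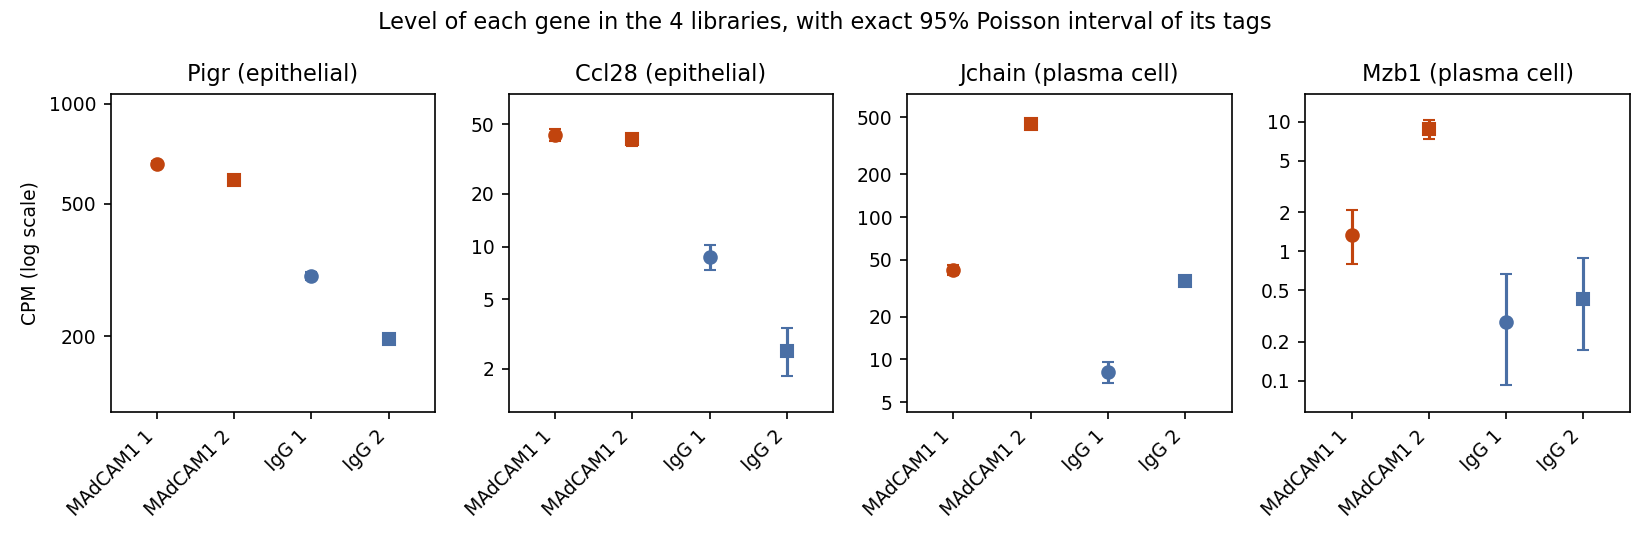
Level of Pigr, Ccl28, Jchain and Mzb1 in each library as CPM on log axes (MAdCAM1 in red, IgG in blue; circles are replicate 1, squares replicate 2), with exact 95% Poisson intervals of the tags. Pigr and Ccl28 are level across the MAdCAM1 libraries, at 657 and 588 CPM and at 43.2 and 40.9 CPM, whereas Jchain is 42.7 CPM in MAdCAM1 1 and 449.6 CPM in MAdCAM1 2.

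Set against each other, the epithelial and the plasma cell pair ordered the libraries differently. The mean log2 CPM of Pigr and Ccl28 was 7.40 and 7.28 in MAdCAM1 1 and MAdCAM1 2, and 5.68 and 4.48 in IgG 1 and IgG 2. That of Jchain and Mzb1 was 2.91 and 5.97 in the MAdCAM1 libraries and 0.61 and 1.97 in the IgG libraries. The epithelial pair was highest in MAdCAM1 1 and lowest in IgG 2, and the plasma cell pair was highest in MAdCAM1 2 and lowest in IgG 1. The difference of the pairs, epithelial minus plasma cell, was 4.48 and 1.31 log2 units in MAdCAM1 1 and MAdCAM1 2 and 5.08 and 2.51 in IgG 1 and IgG 2. It was larger in replicate 1 than in replicate 2 of each group, and its values interleaved between the groups, the spread between mice being wider than the difference of the group means (−0.90). Replicate numbers belong to different mice and tie none of them together.

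Within a library, Jchain tags per 100 Pigr tags numbered 6.50 and 76.5 in MAdCAM1 1 and MAdCAM1 2 and 2.68 and 18.01 in IgG 1 and IgG 2. These ratios overlapped between the groups and compare libraries, not amounts of the 2 RNAs. Ccl28 tags per 100 Pigr tags were 6.58 and 6.95 in the MAdCAM1 libraries and 2.87 and 1.29 in the IgG libraries. Both MAdCAM1 ratios were thus above both IgG ratios. Mzb1 tags per 100 Jchain tags were 3.11 and 1.94 in MAdCAM1 and 3.50 and 1.22 in IgG, which overlapped.

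Pigr and Ccl28 were set beside a list of 14 epithelial markers, since in bulk tumour more cells of a type and more RNA per cell cannot be told apart. Summed, the 14 markers stood at 13220 and 11640 CPM in MAdCAM1 1 and MAdCAM1 2 and at 8065 and 6968 CPM in IgG 1 and IgG 2, so they moved with Pigr and Ccl28. Pigr per 100 CPM of these markers was 4.97 and 5.05 in the MAdCAM1 libraries and 3.76 and 2.82 in the IgG libraries. Ccl28 per 1000 CPM of the same markers was 3.27 and 3.51 in MAdCAM1 and 1.08 and 0.364 in IgG. Neither ratio overlapped between the groups, but the sum rests mostly on Epcam, Krt8, Krt19 and Cldn7, and for Pigr the outcome depended on the marker. Divided by each marker in turn, a comparison added with the values known, Pigr was higher in both MAdCAM1 libraries against 9 of the 14 markers, overlapped against Krt20, Cdx1, Cdx2 and Lgals4, and was lower in both against Phgr1. Per 100 CPM of Epcam, a surface protein of epithelial cells, Pigr was 20.6 and 20.9 in MAdCAM1 and 15.6 and 9.60 in IgG. Per 100 CPM of Lgals4, a galectin of gut epithelium, it was 67.6 and 60.9 in MAdCAM1 and 66.8 and 79.7 in IgG, and per 100 CPM of Phgr1, a gene of mature gut epithelium, 107 and 113 in MAdCAM1 and 151 and 141 in IgG. Pigr thus did not exceed the epithelial markers that differed most between the groups. Ccl28 was higher in both MAdCAM1 libraries against 14 of 14 markers, at 7.03 and 7.88 per 100 CPM of Phgr1 in MAdCAM1 and 4.35 and 1.81 in IgG.

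Jchain kept close to the antibody genes. The 112 immunoglobulin segments in the table, 53 of the heavy chain, 52 of the kappa and 7 of the lambda light chain, summed to 560.1 and 5759 CPM in MAdCAM1 1 and MAdCAM1 2 and to 123 and 434 CPM in IgG 1 and IgG 2. Jchain per 100 CPM of these segments was 7.63 and 7.81 in the MAdCAM1 libraries and 6.61 and 8.16 in the IgG libraries. Since 2 of the segments repeat the counts of another, their tags may be summed more than once; with each such pair taken once, 110 segments gave ratios of 7.69 and 7.87 in MAdCAM1 and 6.91 and 8.23 in IgG. The ratio therefore stayed within a narrow range while Jchain itself spanned 55.2-fold over the 4 libraries. Mzb1 per 1000 CPM of segments was 2.37 and 1.52 in MAdCAM1 and 2.31 and 0.997 in IgG. Pigr per CPM of segments was 1.17 and 0.102 in MAdCAM1 and 2.46 and 0.453 in IgG. This ratio mostly follows its denominator, since Pigr spanned 3.34-fold over the 4 libraries and the segments ranged from 123 to 5759 CPM. The constant segment of IgA, Igha, was not analysed here, so the tags do not say which antibody class the Jchain tags went with. Ighm, the constant segment of IgM, had 0.630 and 7.51 CPM in MAdCAM1 and 1.48 and 2.17 CPM in IgG.

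**Figure D2:**
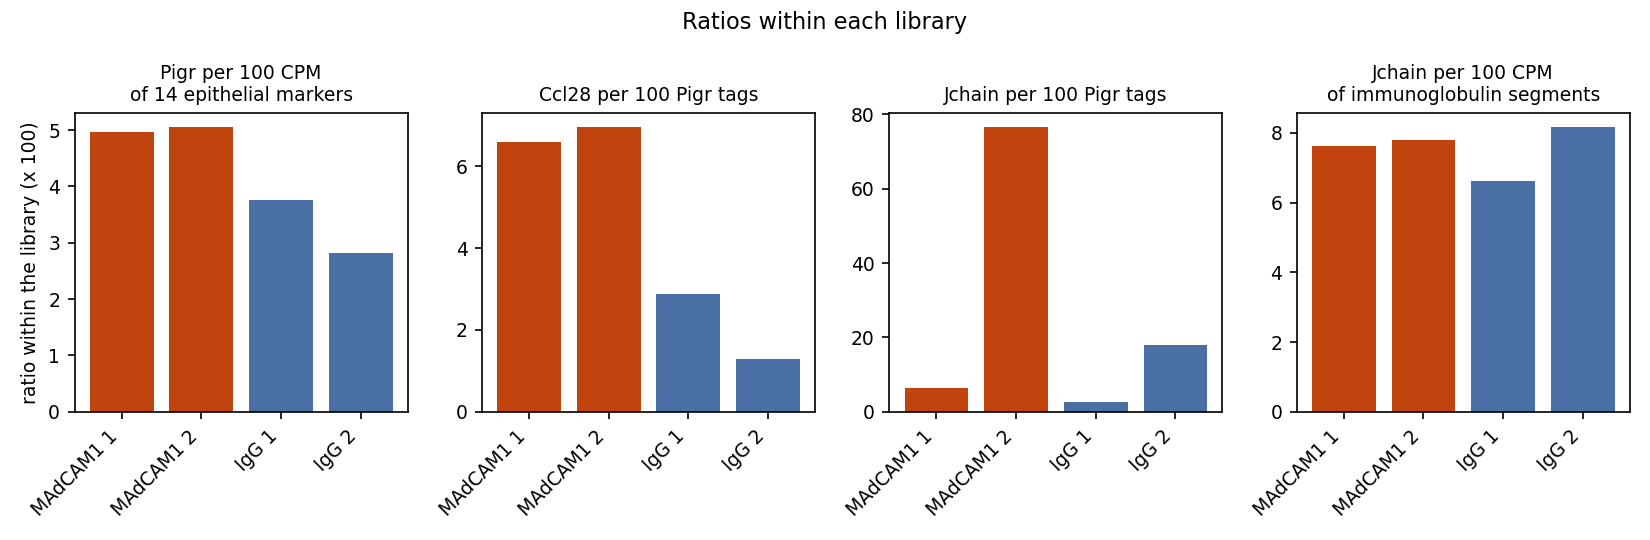
Ratios within each library, multiplied by 100, as bars from 0 (MAdCAM1 in red, IgG in blue, 1 library per bar). Pigr per summed epithelial markers and Ccl28 per Pigr are higher in both MAdCAM1 libraries, Jchain per Pigr peaks at 76.5 in MAdCAM1 2, and Jchain per immunoglobulin segments stays between 6.61 and 8.16.

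Other genes of the pathway and markers of other cell types made up 15 lists of 188 genes. Of these genes 136 were in the table and 128 were tested. The lists were chosen with earlier results of these data known. By edgeR's quasi-likelihood test 0 of 128 were called, and 18 had an unadjusted p under 0.05. DESeq2 called 8 higher and 0 lower, where over all tested genes it called 1.53% higher and 0.14% lower. The exact test called 4 higher and 0 lower, against 1.06% and 0.0628% of all tested genes, and limma-voom called 0. Of these calls 6 by DESeq2 and 3 by the exact test were epithelial markers. The remaining calls were Cd38 by both tests and Edem1 by DESeq2. In all, 37 of 128 (28.9%) were higher in both MAdCAM1 libraries, against 19.7% of all tested genes, and 8 (6.25%) were lower in both, against 18.7%. Without the epithelial markers the shares were 24 of 114 (21.1%) and 8 of 114 (7.02%), with a median log2 fold change of 0.19, against −0.001 over all tested genes.

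The machinery that carries Pigr through the cell was nearly level between the groups. Of 11 tested genes 3 (27.3%) were above both IgG libraries in both MAdCAM1 libraries, against 19.7% of all tested genes, and 1 was below. The median log2 fold change of this list was 0.11, and −0.02 without IgG 2. Mal2, a membrane protein needed for transcytosis of the receptor, stood at 175 and 232 CPM in MAdCAM1 and 171 and 109.9 CPM in IgG (log2 fold change 0.54; edgeR adjusted p = 0.766). Myo5b, the motor of recycling endosomes, stood at 104 and 92.3 CPM against 85.5 and 62.5 CPM in IgG, and the adaptor subunit Ap1m2 at 112 and 103 CPM against 91.3 and 92.8 CPM in IgG. Rab25, a small GTPase of apical recycling, overlapped at 81.9 and 97.9 CPM in MAdCAM1 and 83.8 and 54.9 CPM in IgG. Of the other immunoglobulin receptors, 1 of 6 (16.7%) was higher in both (median 0.22, and −0.93 without MAdCAM1 2). This was Fcgrt, the neonatal Fc receptor that carries IgG, at 26.1 and 43.3 CPM in MAdCAM1 and 18.8 and 21.2 CPM in IgG (edgeR adjusted p = 0.718). The leukocyte Fc receptor genes Fcgr2b and Fcgr3, and Fcer1g, which encodes a signalling chain of Fc receptors, overlapped, with MAdCAM1 given before IgG (Fcer1g 28.0 and 93.6 against 31.0 and 81.6 CPM, Fcgr2b 7.98 and 44.7 against 18.2 and 25.1 CPM, Fcgr3 16.6 and 42.5 against 12.9 and 46.8 CPM). So did Tfrc, the transferrin receptor, at 170.4 and 187 CPM in MAdCAM1 and 189 and 133 CPM in IgG, and Fcmr, a receptor for IgM, at 0 and 4.92 CPM in MAdCAM1 and 1.54 and 0.124 CPM in IgG.

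Signals known to induce Pigr in epithelial cells had 5 of 23 genes higher in both MAdCAM1 libraries and 5 lower. Each share was 21.7%, against 19.7% higher and 18.7% lower over all tested genes. The median log2 fold change of these signals was 0.05, at −0.01 without MAdCAM1 2 and −0.05 when scaled by library size alone. Il17a, a cytokine that raises Pigr in the gut, had 1.75 and 0.194 CPM in MAdCAM1 and 3.41 and 4.64 CPM in IgG, so that it was lower where Pigr was higher (log2 fold change −2.05; edgeR adjusted p = 0.760). It rested on 25 and 3 tags in MAdCAM1. The NF-kB subunit gene Nfkb2 had 36.3 and 35.9 CPM in MAdCAM1 and 46.8 and 50.5 CPM in IgG (log2 fold change −0.43; edgeR adjusted p = 0.691), and Tnf, which acts through NF-kB, 29.6 and 22.3 CPM against 36.7 and 36.1 CPM in IgG. On the other side, Ifngr1, a chain of the interferon gamma receptor, had 195 and 292 CPM in MAdCAM1 and 164 and 169 CPM in IgG, and Tlr4, the receptor for bacterial lipopolysaccharide, 21.5 and 33.5 CPM against 18.7 and 17.4 CPM in IgG. Irf1, a transcription factor of the interferon response, overlapped at 115 and 157 CPM in MAdCAM1 and 129.9 and 103 CPM in IgG.

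Homing genes had 1 of 10 tested genes (10%) higher in both MAdCAM1 libraries, against 19.7% of all tested genes, and 1 lower. Their median log2 fold change was 0.29, and −1.01 without MAdCAM1 2. The antibody target Madcam1 stood at 1.61 and 9.91 CPM in MAdCAM1 and 4.33 and 4.64 CPM in IgG (log2 fold change 0.36; edgeR adjusted p = 0.960). Itgb7 and Itga4, the chains of its ligand, had 35 and 177 tags and 2 and 20 tags in MAdCAM1, so each was highest in MAdCAM1 2, as Jchain was; Itga4 was too low to be tested. Itgb7 stood at 2.45 and 11.5 CPM in MAdCAM1 and 4.10 and 4.08 CPM in IgG, and Itga4 at 0.140 and 1.29 CPM against 0.228 and 0.371 CPM in IgG. Cxcl13, the chemokine of B cell follicles, had 3.08 and 24.4 CPM in MAdCAM1 and 2.05 and 2.29 CPM in IgG (log2 fold change 2.66; edgeR adjusted p = 0.731). Ccl20, an epithelial chemokine for B cells and other Ccr6-bearing cells, had 12.67 and 12.04 CPM in MAdCAM1 and 38.3 and 20.4 CPM in IgG (log2 fold change −1.25; edgeR adjusted p = 0.691). Ccl25, the gut chemokine whose receptor is Ccr9, overlapped at 11.1 and 7.96 CPM in MAdCAM1 and 9.56 and 9.83 CPM in IgG. Thus of the 3 epithelial chemokines Ccl28, Ccl20 and Ccl25, the first was higher in both MAdCAM1 libraries, the second lower in both, and the last overlapped. Ccr7, the receptor that leads lymphocytes into lymphoid tissue, had 0.840 and 7.32 CPM in MAdCAM1 and 2.22 and 2.47 CPM in IgG. The receptors Ccr10 and Ccr3, through which Ccl28 acts, were not analysed here.

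Signals for IgA switching and plasma cell survival had 2 of 9 genes higher in both MAdCAM1 libraries and 0 lower. The share higher was 22.2%, against 19.7% of all tested genes. The median log2 fold change of these signals was 0.34, and −0.18 without MAdCAM1 2. Tnfsf13 encodes APRIL, a survival factor of plasma cells, and stood at 23.04 and 21.95 CPM in MAdCAM1 and 13.7 and 5.13 CPM in IgG (log2 fold change 1.26; edgeR adjusted p = 0.731). Its libraries stood in the order of Pigr and Ccl28, not in that of Jchain. Tnfsf13b, which encodes the related factor BAFF, was highest in MAdCAM1 2, at 1.82 and 7.12 CPM in MAdCAM1 and 3.07 and 1.05 CPM in IgG. Nos2, whose product nitric oxide takes part in IgA switching in mice, had 43.5 and 32.3 CPM in MAdCAM1 and 30.8 and 17.7 CPM in IgG. Tgfb1, the main switch factor for IgA, overlapped at 46.9 and 67.2 CPM in MAdCAM1 and 64.0 and 66.4 CPM in IgG, as did its receptor gene Tgfbr2 at 83.1 and 110 CPM against 64.4 and 87.9 CPM in IgG.

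Genes of plasma cell identity did not share 1 order of libraries. Of 8 tested genes 2 (25%) were higher in both MAdCAM1 libraries, against 19.7% of all tested genes, and 0 lower. The plasma cell list had a median log2 fold change of 0.65, at −0.29 without MAdCAM1 2 and at 0.11 over the 7 genes with at least 1 CPM in 2 libraries. Derl3, which takes part in degradation of misfolded proteins, had 2.10 and 10.4 CPM in MAdCAM1 and 1.65 and 1.98 CPM in IgG. Pou2af1, a coactivator of B cell transcription, had 0.560 and 7.58 CPM in MAdCAM1 and 0.740 and 0.804 CPM in IgG, and Slamf7, a surface receptor of plasma cells, 0.770 and 5.24 CPM against 0.740 and 1.92 CPM in IgG. These 3 genes were highest in MAdCAM1 2. So was Irf4, a transcription factor of plasma cells with 1 and 38 tags in MAdCAM1, which was too low to be tested. Eaf2, also untested, had 4 and 1 tags in MAdCAM1 and 7 and 2 in IgG, and was lowest in MAdCAM1 2. Sdc1 and Prdm1, which colon epithelium also expresses, did not peak there, with Sdc1 at 301 and 245 CPM in MAdCAM1 and 381 and 285 CPM in IgG. Prdm1, which encodes Blimp-1, stood at 9.17 and 15.7 CPM in MAdCAM1 and 14.5 and 23.3 CPM in IgG. Tent5c and Ell2 of the same list did not peak in MAdCAM1 2 either. Tent5c was highest in IgG 2, at 14.35 and 15.61 CPM in MAdCAM1 and 10.3 and 28.45 CPM in IgG. Ell2 was highest in IgG 1, at 43.5 and 42.15 CPM in MAdCAM1 and 44.3 and 35.1 CPM in IgG. Cd38, an ectoenzyme of plasma cells and other cells, had 121 and 185 CPM in MAdCAM1 and 68.8 and 53.4 CPM in IgG. Its log2 fold change was 1.33, with adjusted p-values of 0.665 (edgeR, quasi-likelihood), 0.0276 (edgeR, exact) and 0.00746 (DESeq2).

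Genes of the secretory pathway are used by plasma cells and by mucus-secreting epithelium alike. Of 17 tested, 8 (47.1%) were higher in both MAdCAM1 libraries, against 19.7% of all tested genes, and 1 was lower. The median log2 fold change of the secretory list was 0.24, at 0.42 without MAdCAM1 1 and 0.04 without MAdCAM1 2. Edem1, which directs misfolded glycoproteins to degradation, had 104 and 122 CPM in MAdCAM1 and 66.9 and 57.9 CPM in IgG (log2 fold change 0.86; adjusted p = 0.665 by edgeR's quasi-likelihood test and 0.0202 by DESeq2). Fkbp11, a prolyl isomerase of secretory cells, had 26.1 and 22.9 CPM in MAdCAM1 and 12.1 and 14.8 CPM in IgG, and Ssr4, a subunit of the translocon-associated complex, 348 and 383 CPM against 245 and 256 CPM in IgG. Txndc5, a disulfide isomerase, had 219 and 249 CPM in MAdCAM1 and 168 and 182 CPM in IgG. Hsp90b1, the chaperone that Mzb1 works with, overlapped at 807 and 1057 CPM in MAdCAM1 and 879 and 789.8 CPM in IgG. For none of these 5 genes did MAdCAM1 2 exceed MAdCAM1 1 by the 6.57-fold found for Mzb1.

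**Figure D3:**
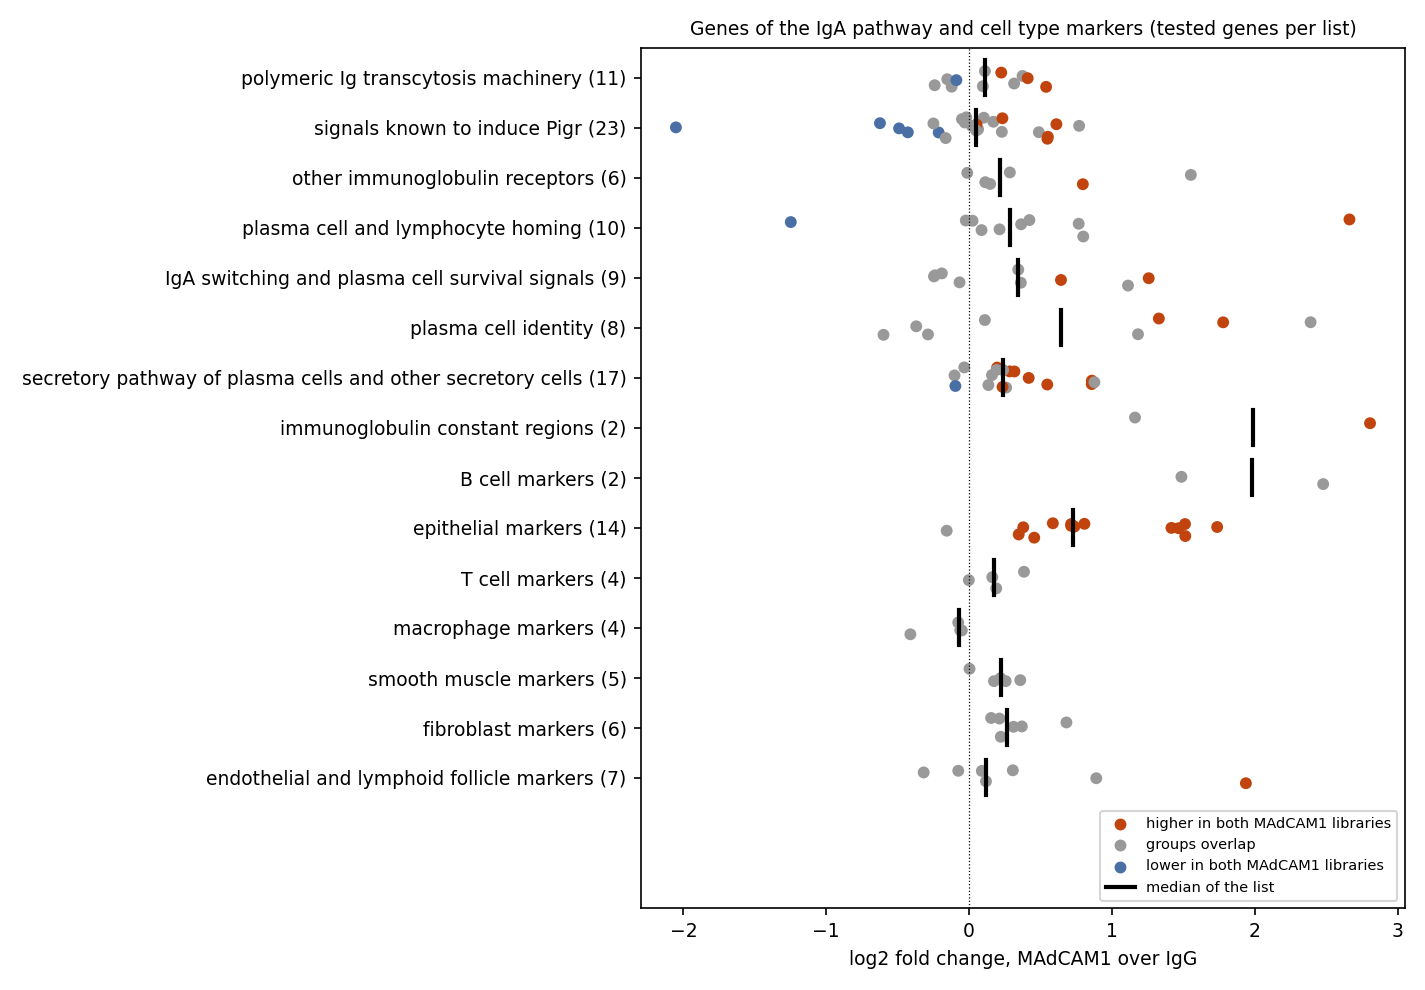
Log2 fold change, MAdCAM1 over IgG, of each tested gene in 15 lists, with the number tested in brackets and a black bar at the median. Epithelial markers lie to the right of 0 in 13 of 14 cases without overlap between the groups. Lists of the IgA route have medians between 0.05 and 0.65, except the immunoglobulin constant regions (2 genes, 1.98). B cell markers (2 genes) also have a median of 1.98, and both of these medians are negative without MAdCAM1 2.

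RNA levels of cell type markers are set beside these values, and they do not separate cell numbers from RNA per cell. Epithelial markers were higher in both MAdCAM1 libraries for 13 of 14 genes (92.9%), against 19.7% of all tested genes. These markers had a median log2 fold change of 0.73. DESeq2 called 6 of the 14 higher, against 1.53% of all tested genes. The 6 were Epcam, Krt20, Vil1, Cldn7, Lgals4 and Phgr1. By edgeR's quasi-likelihood test 0 of the 14 were called, at adjusted p of 0.640 or more. Phgr1 had 615 and 519 CPM in MAdCAM1 and 200.3 and 140 CPM in IgG, and Krt20, a keratin of surface cells, 294 and 365 CPM against 135 and 96.7 CPM in IgG. The junction gene Cldn7 had 1933 and 1746 CPM in MAdCAM1 and 1117 and 1090 CPM in IgG, and the microvillus gene Vil1 182 and 168 CPM against 114 and 99.95 CPM in IgG. Krt18 was the member that overlapped, at 504 and 396 CPM in MAdCAM1 and 480.5 and 523 CPM in IgG.

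B cell markers were represented by Cd79a and Cd79b, the signalling chains of the B cell receptor. Cd79a had 1.12 and 60.3 CPM in MAdCAM1 and 8.76 and 2.23 CPM in IgG, and Cd79b 0.280 and 4.79 CPM against 1.37 and 0.433 CPM in IgG. Both peaked with Jchain in MAdCAM1 2, but IgG 1 stood above MAdCAM1 1 and IgG 2, an order that Jchain did not have. The median of both was a log2 fold change of 1.98, and −1.98 without MAdCAM1 2. Of the immunoglobulin constant regions Ighm and Iglc2 were tested (median 1.98, and −0.52 without MAdCAM1 2), with Iglc2 at 3.29 and 29.7 CPM in MAdCAM1 and 2.79 and 1.92 CPM in IgG. The counts of Iglc2 are identical to those of another gene in the table, as are those of Cd3e, Col1a2, Col3a1 and Ltb below.

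Markers of other cells, Chst4 excepted, overlapped between the groups but differed widely between tumours. T cell markers summed to 12.2 and 42.1 CPM in MAdCAM1 and 24.0 and 24.6 CPM in IgG, and Cd3d, Cd3e, Cd3g and Cd4 had log2 fold changes of 0.38, −0.002, 0.19 and 0.16. Macrophage markers summed to 31.9 and 109.0 CPM in MAdCAM1 and 45.4 and 106 CPM in IgG, with log2 fold changes of −0.41 for Adgre1, −0.08 for Csf1r, −0.06 for Cd68 and −0.05 for Mrc1. Fibroblast markers summed to 423 and 1506 CPM in MAdCAM1 and 399 and 1153 CPM in IgG, so that they were higher in MAdCAM1 2 and IgG 2 than in the other tumour of each group, as Jchain was. Their log2 fold changes were 0.22 for Col1a1, 0.31 for Col1a2, 0.21 for Col3a1, 0.37 for Pdgfra, 0.68 for Dcn and 0.15 for Lum.

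Smooth muscle markers summed to 106 and 1877 CPM in MAdCAM1 and 1657 and 89.1 CPM in IgG, high in the highest and in the lowest library for Jchain. Acta2, Des, Tagln, Cnn1 and Actg2 had log2 fold changes of 0.003, 0.36, 0.26, 0.17 and 0.22. Endothelial and follicle markers summed to 442 and 739 CPM in MAdCAM1 and 326 and 734 CPM in IgG, of which Clu, a secreted chaperone, made up 87.9% to 93.6%. The other 6 genes summed to 32.8 and 89.6 CPM in MAdCAM1 and 38.0 and 47.3 CPM in IgG. Log2 fold changes were 0.31 for Pecam1, −0.32 for Cdh5, 0.09 for Kdr, −0.08 for Vwf, 0.89 for Ltb and 0.12 for Clu. Chst4 of this list, which makes ligands of the homing receptor L-selectin, was higher in both MAdCAM1 libraries. It had 15.3 and 14.7 CPM in MAdCAM1 and 6.15 and 1.67 CPM in IgG, the library order of Pigr and Ccl28. Pecam1, Cdh5, Kdr, Vwf, Ltb and Clu overlapped between the groups. The median log2 fold changes of the T cell, macrophage, smooth muscle, fibroblast and endothelial lists were 0.18, −0.07, 0.22, 0.27 and 0.12, and −0.98, −1.34, −3.16, −0.97 and −0.95 without MAdCAM1 2. Without IgG 2 the macrophage median was 0.65 and the smooth muscle median −0.73. Without IgG 1 the smooth muscle, fibroblast and endothelial medians were 4.49, −0.27 and −0.14, and without MAdCAM1 1 the macrophage median was 0.49. The part of stroma and lymphoid tissue in the levels of Jchain and Mzb1 was not tested.

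The genes closest to each member in pattern were sought among 11920 genes by the root mean square difference of centred log2 CPM over the 4 libraries. Pigr had many close neighbours, 167 within 0.25 log2 units, and Ccl28 had 8. The 5 closest to Pigr were A4gnt, Tgoln1, Sh3tc1, Paqr5 and Slc35a2, at 0.05 to 0.07 log2 units. Tgoln1, a protein of the trans-Golgi network, stood at 318 and 297 CPM in MAdCAM1 and 141 and 99.4 CPM in IgG. The 5 closest to Ccl28 were Trim72, Best2, Hsd11b2, Nr5a2 and Sult1d1, at 0.11 to 0.21 log2 units. Trim72 and Nr5a2 stood at 0 and 0.062 CPM in IgG 2, so their closeness rests there on the prior count. Best2, an anion channel of colonic goblet cells, had 21.2 and 24.9 CPM in MAdCAM1 and 4.61 and 1.17 CPM in IgG, and Hsd11b2, which inactivates glucocorticoids, 31.6 and 24.6 CPM against 5.01 and 1.30 CPM in IgG.

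Jchain had no neighbour within 0.25 log2 units and 1 within 0.5, Reg3b, at 0.38. Reg3b, an antimicrobial lectin of epithelium, had 125 and 745 CPM in MAdCAM1 and 15.0 and 51.1 CPM in IgG, with the same order of libraries as Jchain. Next to Jchain came Cxcl13, Pou2af1, Ctsw and Derl3, at 0.89 to 1.15 log2 units. The 5 closest to Mzb1 were Cxcl13, Reg3b, Xlr3b, Ctsw and Derl3, at 0.50 to 0.81 log2 units, so that 4 of its 5 neighbours were also among those of Jchain. Immunoglobulin segments were kept out of this search. Between the members themselves, Jchain and Mzb1 were 0.65 log2 units apart, and Pigr and Ccl28 0.97. Jchain was 1.79 from Pigr and 1.83 from Ccl28, whereas Mzb1 was nearer to both, at 1.31 from Pigr and 1.23 from Ccl28.

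**Figure D4:**
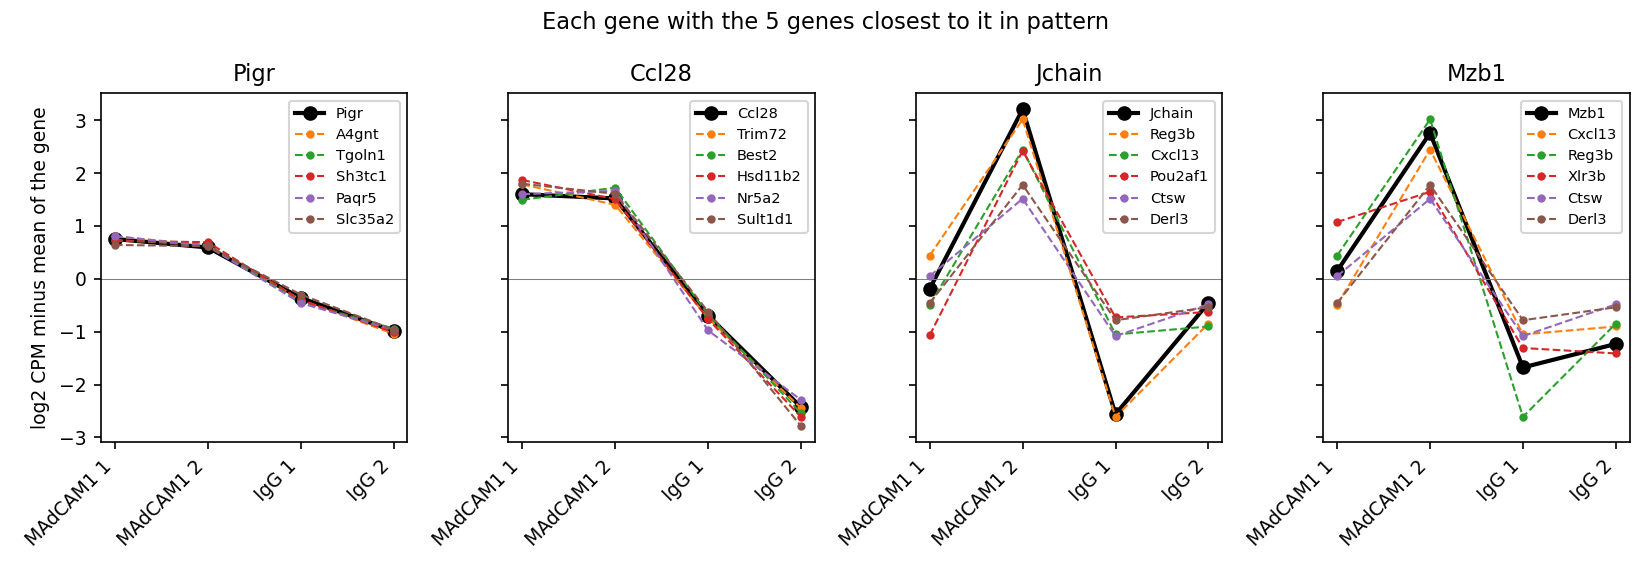
Log2 CPM minus the gene's mean over the 4 libraries, for each member (black) and the 5 genes closest to it (coloured, dashed). Pigr and Ccl28 and their neighbours are high in both MAdCAM1 libraries, lower in IgG 1 and lowest in IgG 2, whereas Jchain and Mzb1 peak in MAdCAM1 2.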

How the data were processed

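CAGE tags were mapped by the authors to GRCm39 with BWA 0.7.17, and unmapped reads with HISAT2 2.0.5, per the labels' protocols. Tag clusters were kept from 0.1 CPM, up to 200 bp and below an irreproducible discovery rate of 0.1. The step from clusters to genes is not given in the sources used here, and genes of few tags may be missing through these filters. The authors deposited these tag counts unscaled, by gene, with 1 column per library, and 0 columns were left out. Members and lists were chosen with earlier results of these data known. Genes were filtered with filterByExpr (14331 of 14979 kept), scaled by TMM (factors 0.962 to 1.04) and compared with the robust quasi-likelihood F test of edgeR 4.0.16 (R 4.3.3), without a block, with Benjamini-Hochberg adjustment over all tested genes. DESeq2 1.42.0, limma-voom (limma 3.58.1), edgeR's exact test, other scalings and filters, a replicate block and leaving out each library were alternatives. Standard errors of the members are from log2 CPM within the groups. They belong to the difference of mean log2 CPM, not to the fitted log2 fold change. Poisson intervals cover counting error only. Named are the 4 members, list genes (the smallest p first, with others chosen after their values were seen), the antibody target and its ligand, and the 5 genes closest to each member in root mean square difference of log2 CPM (prior count 2, mean CPM at least 1, no immunoglobulin or T cell receptor segments, no genes of identical counts). Annotation came from GENCODE M39 on GRCm39, the build of the files. Sequence of Mzb1 is not shown.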

Additional observations from a re-analysis of the deposited data

How the results depend on the processing

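DESeq2 called 239 genes and the exact test 161, against 0 in the main fit; among list genes they called 8 and 4, against 0. Every other alternative, the replicate block included, called 0 in both sets. The same-numbered libraries deviated from their group means with a correlation of −0.135 over 14331 genes and come from different mice, so they were not treated as pairs. All 4 members kept their direction under every alternative run. Both MAdCAM1 values of each lay above both IgG values, so leaving out 1 library could not reverse it. The members were chosen from this comparison, so the kept direction carries no weight. Leaving out single libraries gave log2 fold changes of 1.03 to 1.65 for Pigr (highest without IgG 1), 2.27 to 4.03 for Ccl28 (highest without IgG 1), 0.97 to 4.93 for Jchain and 1.87 to 4.58 for Mzb1 (both lowest without MAdCAM1 2). The epithelial minus plasma cell difference of −0.90 is the same under each scaling by construction.

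Leave-one-out medians of the lists were −0.02 to 0.20 for transcytosis, −0.014 to 0.12 for Pigr inducers, −0.93 to 0.89 for other receptors, −1.01 to 1.08 for homing, −0.18 to 0.41 for switching and survival, −0.29 to 0.85 for plasma cell identity, −0.52 to 2.85 for constant regions and −1.98 to 3.16 for B cells. They were −0.98 to 0.85 for T cells, −1.34 to 0.65 for macrophages, −3.16 to 4.49 for smooth muscle, −0.97 to 1.09 for fibroblasts and −0.95 to 0.80 for endothelium; the cause was not tested. Library size scaling, which shifted the median of all genes by −0.10, turned that of Pigr inducers to −0.048, the filter at 1 CPM in 2 libraries took that of plasma cell identity to 0.11, and the replicate block turned T cells to −0.086. Mzb1, at 5 and 7 tags in IgG, is limited by depth.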
